A study of Homo sapiens with 2 samples.

Results

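The genes described here are 10 members of the Notch pathway, chosen by name. They comprise the receptors NOTCH1, NOTCH2, NOTCH3 and NOTCH4, the ligands JAG1, JAG2 and DLL1, and the target genes HES1, HEY1 and HEYL. All 10 were found among the 26485 genes of the deposited count table. The libraries came from SK-LMS-1 and SK-UT-1, established human leiomyosarcoma cell lines, both given the solvent DMSO, in a study of combined SUV39H2 and PARP inhibition in uterine leiomyosarcoma. Each line was represented by 1 total RNA library, of 6906280 counts in SK-LMS-1, against 7635850 in SK-UT-1. With 1 library per line no test between the lines was possible, no p-value is given, and every difference compares these 2 libraries.

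Notch receptors are single-pass membrane proteins that are activated by ligands on a neighbouring cell. Binding leads to cleavage by ADAM proteases and then by gamma-secretase, which frees the intracellular domain. That domain enters the nucleus, joins the DNA-binding protein RBPJ and a Mastermind coactivator, and switches on genes such as HES1, HEY1 and HEYL, which encode basic helix-loop-helix repressors. In the vessel wall, JAG1 and NOTCH3 are known for their part in the maturation of vascular smooth muscle cells, and leiomyosarcoma is a tumour with smooth muscle features.

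Expression is given as counts and as CPM, a count normalised to library size with the TMM method of edgeR. Ranges in parentheses are exact 95% intervals that cover counting error only. Genes that reached 1 CPM in either library were called measured, and a difference was called at 2-fold. A count of 0 was raised to 3 counts (0.458 CPM in SK-LMS-1), and a fold against it is written with at least. That floor lies below the exact 95% upper limit for 0 counts, 0.563 CPM in SK-LMS-1. The lower limit of the exact interval is therefore given beside each such fold.

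Of the 9 members measured, 2 (NOTCH4 and DLL1) passed 2-fold towards SK-LMS-1, both at low counts, beside 21.9% of all 14324 measured genes. Another 4 (NOTCH1, NOTCH3, JAG2 and HEYL) passed it towards SK-UT-1, beside 18.3% of measured genes. NOTCH2, JAG1 and HES1 lay within 2-fold, and HEY1 stayed below 1 CPM in both lines. Of the members called, NOTCH3, JAG2 and HEYL reached 1 CPM only in SK-UT-1, and NOTCH4 and DLL1 only in SK-LMS-1. A gene at 0 counts in SK-LMS-1 that is measured through SK-UT-1 passes 2-fold by the rule itself, so such calls carry no further information. NOTCH3, JAG2 and HEYL had 0 counts in SK-LMS-1, a state found for 3.32% of measured genes, while no member was at 0 counts in SK-UT-1, where 4.04% were. At a 4-fold rule, 0 members passed towards SK-LMS-1, beside 11.4% of measured genes, and NOTCH3, JAG2 and HEYL passed towards SK-UT-1, beside 7.3%. The median log2 ratio of the 9 measured members, SK-LMS-1 over SK-UT-1, was -0.90, against 0.01 over all measured genes. That median is the ratio of JAG1, and NOTCH3, JAG2 and HEYL entered it at the floor. With no filter, or with 10 counts required in both libraries, the median of the members was -0.33. In bulk RNA, fewer cells expressing a gene and less RNA per cell cannot be told apart.

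**Figure D1:**
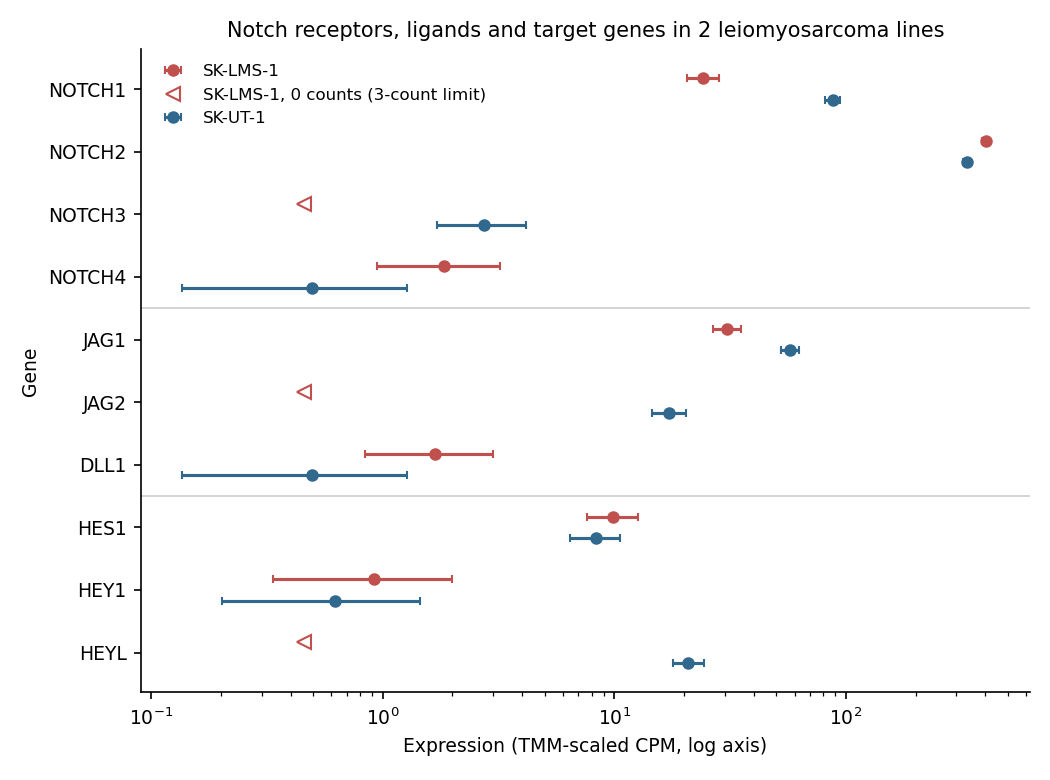
Expression of each Notch gene in SK-LMS-1 (red) and SK-UT-1 (blue), in TMM-scaled CPM on a log axis, with 1 library per line; bars are exact 95% Poisson intervals for counting error, and open triangles mark 0 counts at the 3-count limit. NOTCH2 stood highest in both lines, at 401 CPM in SK-LMS-1, against 332 CPM in SK-UT-1, and NOTCH3, JAG2 and HEYL were at 0 counts in SK-LMS-1.

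The promoters of HES1 and HEYL are shown because these targets behaved differently. HES1 did not differ detectably between the lines, and HEYL was detected in SK-UT-1 alone. RBPJ is known to bind the core TGGGAA. Each window is 300 bases long, from 250 bases before to 50 after the RefSeq start in GRCh38.p14, 5′ to 3′ on the strand of the gene. HES1 is at chr3:194135898-194136197 on the plus strand and HEYL at chr1:39639594-39639893 on the minus strand, and capitals mark TGGGAA or its reverse complement TTCCCA.
HES1: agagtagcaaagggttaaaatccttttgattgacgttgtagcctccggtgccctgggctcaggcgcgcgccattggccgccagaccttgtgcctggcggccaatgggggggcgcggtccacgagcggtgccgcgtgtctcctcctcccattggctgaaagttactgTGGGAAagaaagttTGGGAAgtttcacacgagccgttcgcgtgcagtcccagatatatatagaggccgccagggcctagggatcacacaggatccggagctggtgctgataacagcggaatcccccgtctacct
HEYL: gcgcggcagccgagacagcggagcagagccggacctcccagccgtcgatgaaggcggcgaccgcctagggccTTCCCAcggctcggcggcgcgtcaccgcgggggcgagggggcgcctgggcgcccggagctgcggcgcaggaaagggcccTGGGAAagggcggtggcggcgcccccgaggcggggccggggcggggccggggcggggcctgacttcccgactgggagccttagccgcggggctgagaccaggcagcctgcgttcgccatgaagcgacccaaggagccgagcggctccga

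Both windows held 2 matches. Only exact matches to this core were searched, so RBPJ sites with other letters are not marked. In HES1 the 2 core matches had the same orientation and lay close together, 84 to 79 and 70 to 65 bases before the start. In HEYL they were in opposite orientations and farther apart, 178 to 173 and 99 to 94 bases before the start. Of all 35116 RefSeq promoter windows, 24.0% held at least 1 such match on either strand and 3.80% held at least 2. A RefSeq window was found for 8 of the 10 members, and the other 6 (the 4 receptors, JAG1 and JAG2) held no match. The E-box CACGTG, which HEY proteins are known to bind and which reads alike on both strands, was found in none of the 8 windows and in 7.26% of all windows. These matches describe the letters of the reference and are not measurements of binding in these lines.

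The windows of NOTCH3, JAG2 and HEYL, the members at 0 counts in SK-LMS-1, were rich in CpG. They held 37, 46 and 41 CpG dinucleotides, against a median of 14 over all windows. The windows of members detected in both lines ranged widely, with 42 CpG in NOTCH1, 33 in NOTCH2, 24 in JAG1, 21 in HES1 and 5 in NOTCH4. NOTCH1, detected in both lines, thus held more CpG than NOTCH3 and HEYL, while NOTCH2 held fewer than NOTCH3, JAG2 or HEYL.

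NOTCH2 was the most abundant receptor in both lines and differed little between them. It had 2626 counts (401 CPM) in SK-LMS-1, against 2673 counts (332 CPM) in SK-UT-1, a 1.21-fold excess in SK-LMS-1 (1.14 to 1.27). The difference exceeds counting error but lies well inside 2-fold. NOTCH2NL, a truncated copy of NOTCH2, stood at 15.4 CPM in SK-LMS-1, against 14.0 CPM in SK-UT-1. Fragments from the shared part may be missing from either gene, so the level of NOTCH2 is uncertain there. The deposited hg38 coordinates place NOTCH2 on chromosome 1 from 119911553 to 120069703, minus strand.

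NOTCH1, the receptor best known for activating mutations in T-cell leukaemia, was lower in SK-LMS-1. It had 159 counts (24.3 CPM) in SK-LMS-1, against 706 counts (87.7 CPM) in SK-UT-1, a 3.61-fold excess in SK-UT-1 (3.04 to 4.32). The whole interval lay beyond 2-fold. NOTCH1 occupies chromosome 9 from 136494444 to 136545786 (minus strand, hg38).

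NOTCH3, the receptor of vascular smooth muscle and pericytes, was low or undetected. It had 0 counts in SK-LMS-1, against 22 counts (2.73 CPM) in SK-UT-1. The excess in SK-UT-1 was at least 5.97-fold at the 3-count floor (4.46-fold by the exact interval). Even in SK-UT-1 its level per kb of exon exceeded that of only 9.99% of measured genes. NOTCH3 occupies chromosome 19 from 15159633 to 15200981 (minus strand, hg38).

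NOTCH4, a receptor best known in endothelium, was at the edge of detection. It had 12 counts (1.83 CPM) in SK-LMS-1, against 4 counts (0.497 CPM) in SK-UT-1, a 3.68-fold excess in SK-LMS-1, with an interval that reached from 1.12 to 15.7. The gene is listed on chromosome 6 (32194843 to 32224067, minus strand) and again on alternative haplotypes, 7 sequences in all, so fragments may be lost as multiply aligned. It also shares 98 exonic bases with GPSM3 on the same strand, which had 29 counts in SK-LMS-1, against 1 count in SK-UT-1, and fragments there could be counted for both genes. The part of either in the NOTCH4 difference was not tested. Of 9 endothelial markers, 2 reached 1 CPM in SK-LMS-1, against 1 in SK-UT-1, and the list summed to 38.5 CPM in SK-LMS-1, against 33.9 CPM in SK-UT-1. TIE1 in SK-LMS-1 (36.5 CPM) and EMCN in SK-UT-1 (33.7 CPM) made up most of these sums, while VWF, KDR, TEK and ERG were at 0 counts in both lines.

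Counted within each library, the receptor counts divided differently, and this needs no scaling between libraries. NOTCH2 took 93.9% of the counts of the 4 receptor genes in SK-LMS-1 (exact Clopper-Pearson interval 92.9 to 94.7), against 78.5% in SK-UT-1 (77.1 to 79.9). NOTCH1 took 5.68% in SK-LMS-1 (4.86 to 6.61), against 20.7% in SK-UT-1 (19.4 to 22.1). Per kb of exon, the level of NOTCH2 was 13.0 times that of NOTCH1 in SK-LMS-1 (11.1 to 15.3), against 2.98 times in SK-UT-1 (2.74 to 3.24). The intervals of the 2 libraries did not overlap for either measure.

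**Figure D2:**
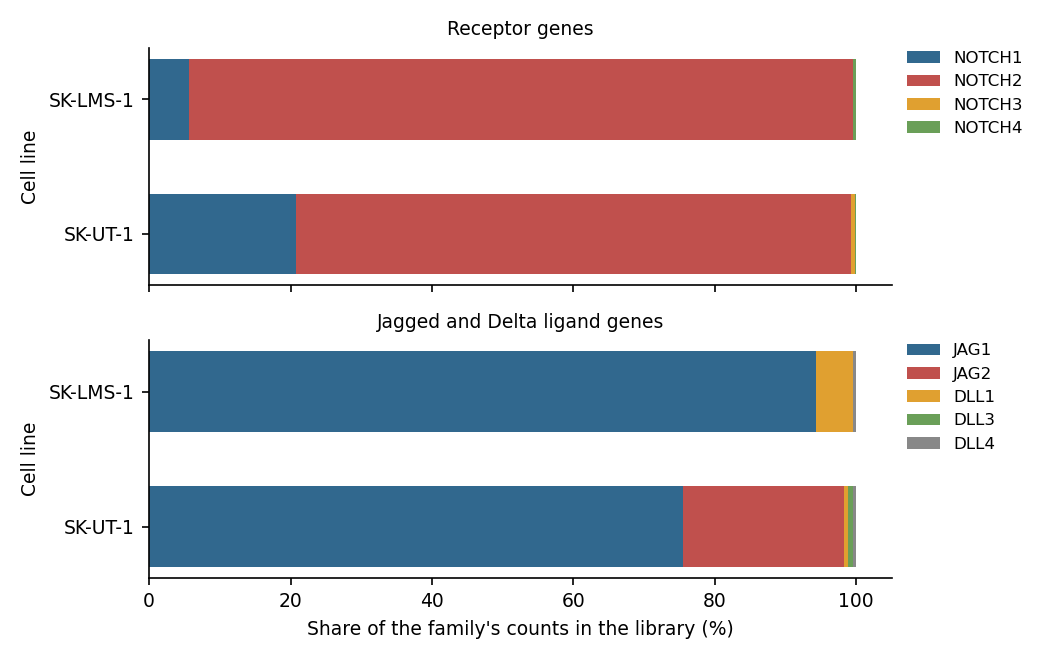
Share of counts (%) taken by each gene within the receptor genes (upper panel) and within the Jagged and Delta ligand genes (lower panel), SK-LMS-1 above SK-UT-1, 1 library each. NOTCH1 took 5.68% of receptor counts in SK-LMS-1, against 20.7% in SK-UT-1, and JAG2 had 0 ligand counts in SK-LMS-1, against 22.7% in SK-UT-1.

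JAG1, the ligand known for its part in smooth muscle differentiation, had the most counts of the Jagged and Delta ligands in both lines. It had 201 counts (30.7 CPM) in SK-LMS-1, against 462 counts (57.4 CPM) in SK-UT-1, a 1.87-fold excess in SK-UT-1 (1.58 to 2.22). The difference exceeded counting error but fell short of the 2-fold rule. Scaled by library totals or by the upper quartile, JAG1 passed the rule, with log2 ratios of -1.06 and -1.04. JAG1 occupies chromosome 20 from 10637684 to 10674046 (minus strand, hg38).

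JAG2, the close relative of JAG1, was detected in SK-UT-1 alone. It had 0 counts in SK-LMS-1, against 139 counts (17.3 CPM) in SK-UT-1. The excess in SK-UT-1 was at least 37.7-fold at the 3-count floor (30.3-fold by the exact interval). JAG2 occupies chromosome 14 from 105140981 to 105168824 (minus strand, hg38).

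DLL1, a Delta-type ligand, was scarce. It had 11 counts (1.68 CPM) in SK-LMS-1, against 4 counts (0.497 CPM) in SK-UT-1, a 3.38-fold excess in SK-LMS-1, with an interval from 1.001 to 14.5. The lower bound touched a ratio of 1, so counting error alone nearly covers the difference. DLL1 is listed on chromosome 6 (170282206 to 170290609, minus strand) and on 1 alternative haplotype, and its level is uncertain for that reason. The remaining Delta-type genes were near 0. DLL3 had 0 counts in SK-LMS-1, against 4 in SK-UT-1, and DLL4, the Delta ligand of endothelium, had 1 count in SK-LMS-1, against 3 in SK-UT-1.

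Within the 5 Jagged and Delta ligand genes, with DNER left out, JAG1 took 94.4% of counts in SK-LMS-1 (90.4 to 97.1), against 75.5% in SK-UT-1 (71.9 to 78.8). JAG2 had 0 of 213 ligand counts in SK-LMS-1 (upper bound 1.72%), against 22.7% in SK-UT-1 (19.4 to 26.2). The remainder in SK-LMS-1 was almost all DLL1, at 5.16% (2.61 to 9.05), against 0.654% in SK-UT-1 (0.178 to 1.66).

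HES1, the most widely used readout of Notch activity but one that other pathways also control, did not differ detectably. It had 65 counts (9.92 CPM) in SK-LMS-1, against 67 counts (8.32 CPM) in SK-UT-1, a ratio of 1.19 in favour of SK-LMS-1 with an interval from 0.834 to 1.70. At this depth a difference of 2-fold would have lain outside the interval. HES1 occupies chromosome 3 from 194136142 to 194138612 (plus strand, hg38).

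HEYL, a HEY-family repressor, was detected in SK-UT-1 alone. It had 0 counts in SK-LMS-1, against 168 counts (20.9 CPM) in SK-UT-1. Its excess in SK-UT-1 was at least 45.6-fold at the count floor (36.7-fold by the exact interval). HEYL occupies chromosome 1 from 39623431 to 39639676 (minus strand, hg38). Its level per kb was at most 0.0207 times that of HES1 in SK-LMS-1, against 0.890 times in SK-UT-1 (0.667 to 1.20), so the levels of these targets did not differ detectably in SK-UT-1.

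HEY1, which in mice acts with HEY2 in cardiovascular development, was below the level called measured. It had 6 counts (0.916 CPM) in SK-LMS-1, against 5 counts (0.621 CPM) in SK-UT-1, and its ratio of 1.47 had an interval from 0.375 to 6.11. No difference was detectable at this depth. HEY2 had 1 count in each line and HES5, a target best known in the nervous system, had 0 in both. HEY1 occupies chromosome 8 from 79764010 to 79767863 (minus strand, hg38).

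**Figure D3:**
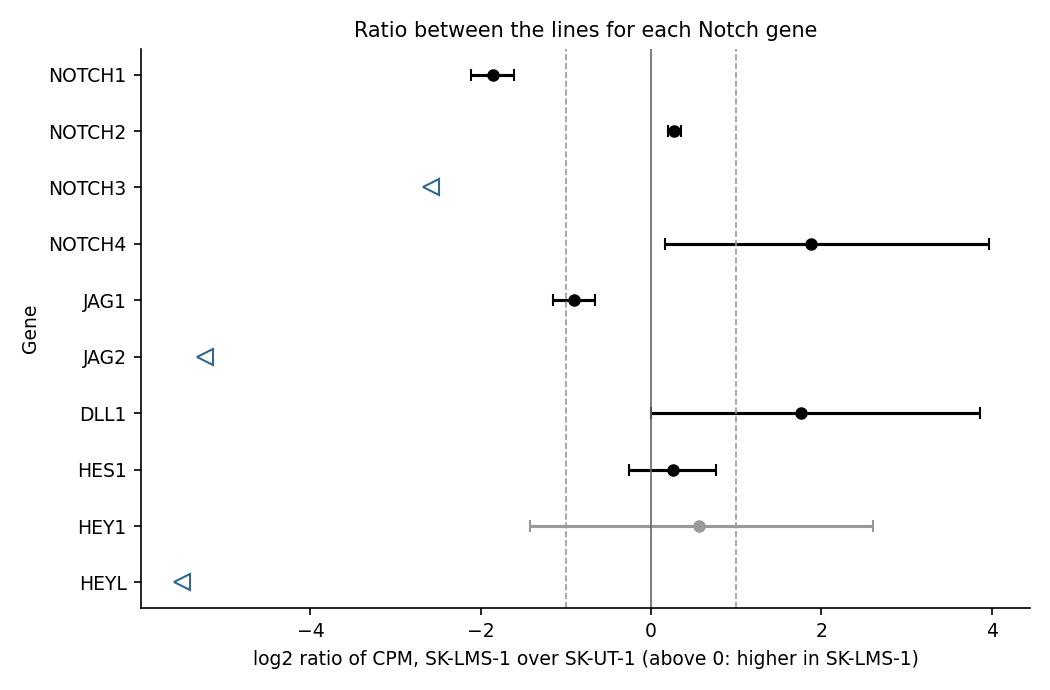
Ratio of CPM, given as log2 of SK-LMS-1 over SK-UT-1, for each Notch gene, with exact 95% intervals for counting error; open triangles mark genes at 0 counts in SK-LMS-1, whose ratio is a bound, the grey point (HEY1) was below 1 CPM, and dashed lines mark 2-fold. NOTCH1 lay at -1.85, while the intervals of HES1 and HEY1 held 0. HEYL lay at -5.51 at the count floor, and at -5.20 or below by the exact interval.

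Levels per kb of exon placed the members in partly different orders. In SK-LMS-1 the order was NOTCH2 (33.9 CPM per kb), HES1 (6.79), JAG1 (5.12), NOTCH1 (2.61), DLL1 (0.507), HEY1 (0.355) and NOTCH4 (0.272), with NOTCH3, JAG2 and HEYL at 0. The neighbours HES1 and JAG1, DLL1 and HEY1, and HEY1 and NOTCH4 had overlapping intervals in that line. In SK-UT-1 the order was NOTCH2 (28.1 CPM per kb), JAG1 (9.59), NOTCH1 (9.44), HES1 (5.70), HEYL (5.07), JAG2 (2.96), NOTCH3 (0.339), HEY1 (0.241), DLL1 (0.150) and NOTCH4 (0.0737). There JAG1 and NOTCH1 overlapped, as did HES1 and HEYL, and each adjacent pair from NOTCH3 downwards. NOTCH2 stood clear of the next gene in both lines, with 85.1% of measured genes below its level in SK-LMS-1, against 82.7% in SK-UT-1. NOTCH1 had 27.5% of measured genes below it in SK-LMS-1, against 56.7% in SK-UT-1. For NOTCH4 and DLL1 the exon length of the reference chromosome was used, because the tabulated length adds up the haplotype copies.

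The other genes of the pathway, 82 genes in 8 lists by role, were measured in 68 cases. Of these, 16 passed 2-fold towards SK-LMS-1, 15 passed it towards SK-UT-1 and 37 did not pass, beside 40.2% of all measured genes that passed 2-fold in either direction. Their median log2 ratio was 0.00, against 0.01 over all measured genes.

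Genes of receptor cleavage mostly lay within 2-fold, while 40.2% of all measured genes passed 2-fold in either direction. Of 9 genes, 8 lay within 2-fold, among them ADAM10, the protease of the ligand-dependent step (227 CPM in SK-LMS-1, against 279 CPM in SK-UT-1). APH1B fell just short of the cut, at 1.99-fold higher in SK-LMS-1 (1.58 to 2.51), while ADAM10 was the higher in SK-UT-1. The only gene past 2-fold was FURIN, the protease that cuts the receptor during its maturation. It had 404 counts (61.7 CPM) in SK-LMS-1, against 86 counts (10.7 CPM) in SK-UT-1, a 5.77-fold excess in SK-LMS-1 (4.56 to 7.37).

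Among genes that act on ligands, NEURL1B, a ubiquitin ligase that promotes ligand endocytosis, stood apart. It had 83 counts (12.7 CPM) in SK-LMS-1, against 1797 counts (223 CPM) in SK-UT-1, a 17.6-fold excess in SK-UT-1 (14.1 to 22.2). MIB1, the main ligase for the same step, lay within 2-fold, with 228 CPM in SK-LMS-1, against 239 CPM in SK-UT-1. Of the 5 measured genes of that list, 4 lay within 2-fold, while 40.2% of all measured genes passed it in either direction. DNER, a membrane protein reported in mice to bind Notch without the usual ligand domain, differed in the opposite direction. It had 378 counts (57.7 CPM) in SK-LMS-1, against 1 count in SK-UT-1, a 464-fold excess in SK-LMS-1 (82.8 to 18387). It was the 1 measured gene of the 6 other ligands.

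The sugar-transferase genes that tune receptor binding held 2 of 5 measured members higher by 2-fold or more in SK-UT-1, beside 18.3% of measured genes. RFNG, a Fringe enzyme, had 29 counts (4.43 CPM) in SK-LMS-1, against 87 counts (10.8 CPM) in SK-UT-1, a 2.44-fold excess in SK-UT-1 (1.59 to 3.86). LFNG was the other, from 6 counts in SK-LMS-1, against 15 in SK-UT-1, and its interval, from 0.746 to 6.40, held a ratio of 1. POFUT1, which adds the O-fucose that Fringe enzymes extend, lay within 2-fold at 157 CPM in SK-LMS-1, against 119 CPM in SK-UT-1.

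RBPJ itself lay within 2-fold, and its partners differed in both directions. RBPJ had 202 CPM in SK-LMS-1, against 132 CPM in SK-UT-1. MAML1, a Mastermind coactivator, had 54.3 CPM in SK-LMS-1, against 146 CPM in SK-UT-1, a 2.70-fold excess in SK-UT-1 (2.39 to 3.04). MAML2 went the other way, with 79.4 CPM in SK-LMS-1, against 35.4 CPM in SK-UT-1, a 2.24-fold excess in SK-LMS-1 (1.94 to 2.60). KAT2B, a histone acetyltransferase recruited by the complex, had 34.9 CPM in SK-LMS-1, against 2.73 CPM in SK-UT-1, a 12.8-fold excess in SK-LMS-1 (8.24 to 20.8). The other 5 of 8 nuclear activators lay within 2-fold, while 40.2% of all measured genes passed it in either direction.

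Of 13 repressors that act with RBPJ or with HES proteins, 3 passed 2-fold towards SK-LMS-1, beside 21.9% of all measured genes, 3 towards SK-UT-1, beside 18.3%, and 7 did not pass. The Groucho-type corepressors, which HES proteins recruit, showed the widest spread. TLE1 had 80.0 CPM in SK-LMS-1, against 6.71 CPM in SK-UT-1, a 11.9-fold excess in SK-LMS-1 (8.996 to 16.1). TLE4 had 50.8 CPM in SK-LMS-1, against 3.60 CPM in SK-UT-1, a 14.1-fold excess in SK-LMS-1 (9.64 to 21.4). TLE2 was the opposite, with 1.22 CPM in SK-LMS-1, against 11.3 CPM in SK-UT-1, a 9.26-fold excess in SK-UT-1 (4.51 to 22.1). TLE3 stood at 63.9 CPM in SK-LMS-1, against 66.8 CPM in SK-UT-1, and all 4 reached 1 CPM in both lines.

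The remaining repressors differed less. L3MBTL3, which binds RBPJ and represses its targets, had 12.7 CPM in SK-LMS-1, against 60.0 CPM in SK-UT-1, a 4.74-fold excess in SK-UT-1 (3.75 to 6.05). The corepressor NCOR1 in SK-UT-1 exceeded its SK-LMS-1 level 2.09-fold (1.99 to 2.20).

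Of 13 genes of receptor turnover, 2 passed 2-fold towards SK-LMS-1, 2 towards SK-UT-1 and 9 did not pass. Among all measured genes, 21.9% and 18.3% passed in these directions. NUMB, an inhibitor of Notch, had 109 CPM in SK-LMS-1, against 63.99 CPM in SK-UT-1, within 2-fold. Its relative NUMBL had 16.0 CPM in SK-LMS-1, against 35.0 CPM in SK-UT-1, a 2.19-fold excess in SK-UT-1 (1.74 to 2.76). Members of the Deltex family of ubiquitin ligases differed in opposite directions. DTX3L in SK-LMS-1 exceeded its SK-UT-1 level 2.48-fold (2.21 to 2.79) and DTX2 2.12-fold (1.31 to 3.47), DTX2 being listed on more than 1 sequence and thus uncertain. DTX1, itself a Notch target in lymphocytes, had 0 counts in SK-LMS-1, against 15 counts (1.86 CPM) in SK-UT-1.

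Of 20 other genes known as Notch targets in some cell type, 14 were measured. Of these, 7 passed 2-fold towards SK-LMS-1, 6 towards SK-UT-1 and 1 did not pass. Of all measured genes, 21.9% and 18.3% passed in these directions. Most of these genes respond to other pathways as well, and the list gives no common direction. NRARP, a feedback inhibitor and one of the more specific targets, had 7 counts (1.07 CPM) in SK-LMS-1, against 18 counts (2.24 CPM) in SK-UT-1. Its 2.09-fold excess in SK-UT-1 had an interval from 0.834 to 5.93, which held a ratio of 1. HES4, a HES-family gene, had 12 counts in SK-LMS-1, against 2 in SK-UT-1.

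The ID genes, which encode inhibitors of basic helix-loop-helix factors and are best known as targets of BMP signalling, were higher in SK-UT-1. ID4 had 5.19 CPM in SK-LMS-1, against 119 CPM in SK-UT-1, a 22.8-fold excess in SK-UT-1 (16.2 to 33.2). ID2 had 9.16 CPM in SK-LMS-1, against 144 CPM in SK-UT-1, a 15.7-fold excess in SK-UT-1 (12.1 to 20.8). ID3 in SK-UT-1 exceeded its SK-LMS-1 level 3.97-fold (3.35 to 4.73), and ID1 had 30.7 CPM in SK-LMS-1, against 104 CPM in SK-UT-1, so all 4 ID genes passed 2-fold in that direction.

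The transcription factors SOX9, BHLHE40 and BHLHE41 were higher in SK-LMS-1. SOX9, a factor of cartilage and gland development, had 83.9 CPM in SK-LMS-1, against 8.32 CPM in SK-UT-1, a 10.1-fold excess in SK-LMS-1 (7.81 to 13.2). BHLHE40, of the circadian and hypoxia responses, in SK-LMS-1 exceeded its SK-UT-1 level 7.06-fold (5.30 to 9.56). Its relative BHLHE41 had 62 counts in SK-LMS-1, against 0 in SK-UT-1. The excess in SK-LMS-1 was at least 25.4-fold at the 3-count floor (20.0-fold by the exact interval).

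**Figure D4:**
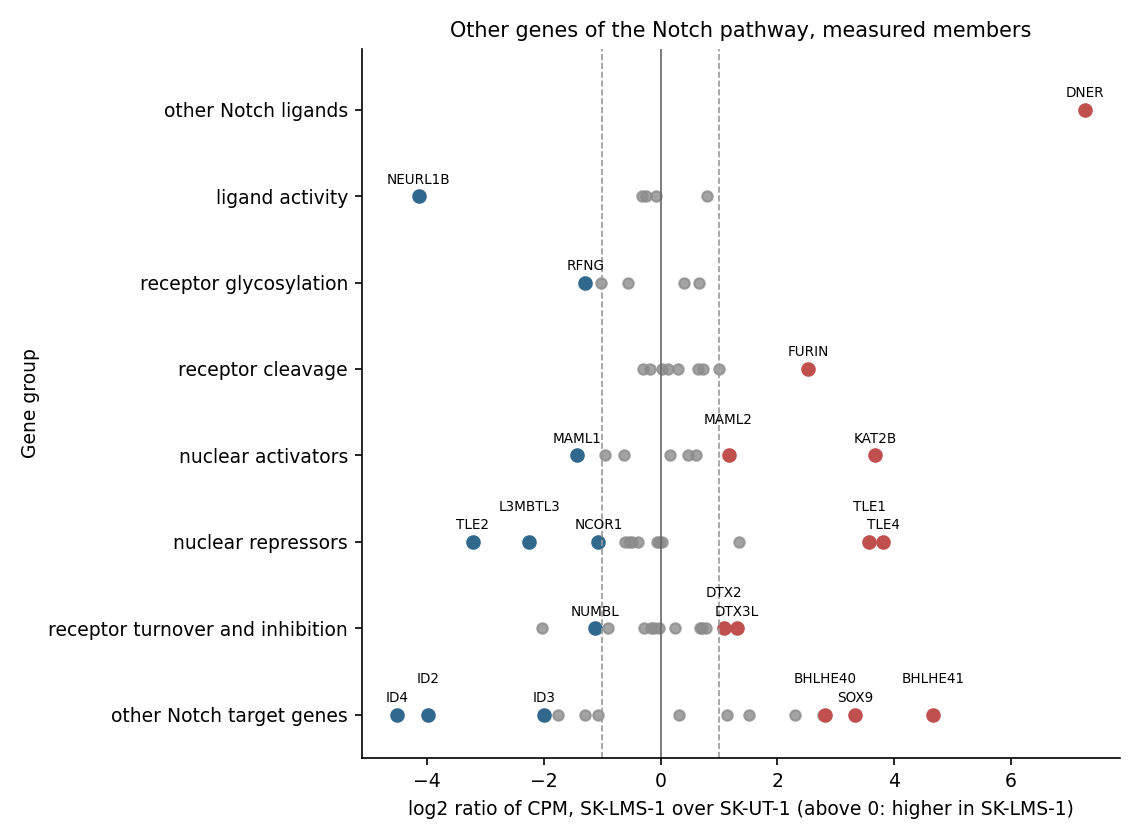
Ratio of CPM, given as log2 of SK-LMS-1 over SK-UT-1, for the measured genes of 8 lists of other pathway genes, 1 point per gene; labelled genes are coloured by direction and the others are grey, dashed lines mark 2-fold, and counts below 3 were raised to 3, so DNER and BHLHE41 are drawn at a smaller ratio than their counts give. FURIN stood apart from the 8 other cleavage genes, and the TLE genes lay on both sides.

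Genes that neighbour the members in the genome were compared with them. Over measured genes starting within 1 Mb, the median log2 ratio was -0.45 for the 52 genes beside NOTCH1, of which 1 passed 2-fold towards SK-LMS-1, beside 21.9% of all measured genes, and 11 towards SK-UT-1, beside 18.3%. NOTCH1 itself, at -1.85, lay further in the same direction. Beside JAG2 the median of 20 genes was 0.08. Of these, 3 passed 2-fold towards SK-LMS-1 and 3 towards SK-UT-1, beside 21.9% and 18.3% of all measured genes. In SK-LMS-1, 2 were at 0 counts, beside 3.32% of all measured genes. Beside HEYL the median of 31 genes was -0.09. Among them, 3 passed 2-fold towards SK-LMS-1 and 10 towards SK-UT-1, beside 21.9% and 18.3% of all measured genes. In SK-LMS-1, 4 were at 0 counts, beside 3.32%. The ratios of JAG2 (-5.24), HEYL (-5.51) and the neighbours at 0 counts are bounds and were not ranked against each other. For NOTCH3 the median of 22 genes was -0.18. The genes beside JAG1 were 4, with a median of 0.35, opposite in sign to JAG1 at -0.90, and within 3 Mb the median of 10 genes was 1.77. For the other 5 members it ranged from -0.60 beside HEY1 to 0.50 beside DLL1.

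**Figure D5:**
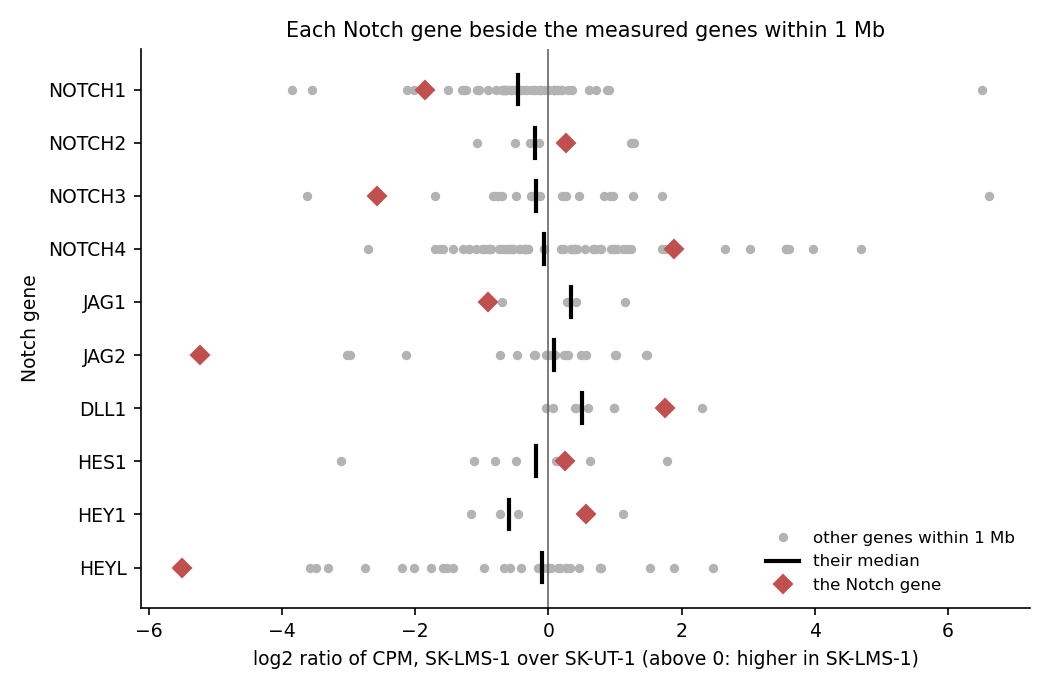
Ratio of CPM, given as log2 of SK-LMS-1 over SK-UT-1, for each Notch gene (red diamond) and for the other measured genes within 1 Mb (grey points), with their median as a black bar. The median beside NOTCH1 was -0.45, and genes at 0 counts in SK-LMS-1, NOTCH3, JAG2 and HEYL among them, are drawn at a bound.

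The smooth muscle markers differed in both directions, and some defining ones were at or near 0. Of 11 markers, 7 reached 1 CPM in SK-LMS-1, against 9 in SK-UT-1, and the list summed to 1517 CPM in SK-LMS-1, against 574 CPM in SK-UT-1. CALD1 was the highest in both (749 CPM in SK-LMS-1, against 343 CPM in SK-UT-1). MYLK, the myosin light chain kinase, had 414 CPM in SK-LMS-1, against 9.94 CPM in SK-UT-1, and TAGLN and CNN1, proteins of the contractile apparatus, were also past 2-fold towards SK-LMS-1. ACTA2, smooth muscle actin, had 10.5 CPM in SK-LMS-1, against 54.0 CPM in SK-UT-1. MYOCD, the master coactivator of the contractile programme, had 0 counts in both lines, and MYH11, the smooth muscle myosin heavy chain, had 5 counts in SK-LMS-1, against 2 in SK-UT-1. DES, the muscle intermediate filament, had 1 count in SK-LMS-1, against 26 in SK-UT-1. Of 6 immune markers, PTPRC was at 0 in both lines and CD68 was the highest (91.9 CPM in SK-LMS-1, against 14.5 CPM in SK-UT-1). Of 7 epithelial markers, 4 reached 1 CPM in each line, led by KRT18 in SK-LMS-1 (73.3 CPM) and KRT19 in SK-UT-1 (19.3 CPM). Of 6 fibroblast markers, 5 reached 1 CPM in SK-LMS-1, against 3 in SK-UT-1, led by COL1A1 in SK-LMS-1 (776 CPM) and COL1A2 in SK-UT-1 (467 CPM).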

How the data were processed

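Total RNA from SK-LMS-1 and SK-UT-1 cells given DMSO was prepared with a stranded SMARTer kit, per the labels' protocols. Per the file headers, the authors ran featureCounts 2.0.1 on hg38 with a UCSC gene annotation and strand setting 1, and deposited unnormalised counts for each gene. Fragments over several genes were counted for each. No aligner is named in the labels or headers used here. The table has 2 further columns of counts, not used here. The deposited length column, which adds up haplotype copies, was replaced by the exon length on the reference chromosome.

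Counts were scaled with edgeR 4.0.16 (TMM factors of 0.949 in SK-LMS-1, against 1.05 in SK-UT-1) in R 4.3.3. Counts below 3 were raised to 3 for calls, medians and bounds. Folds against 1 or more counts come from the counts themselves, with exact conditional binomial 95% intervals (scipy 1.17.1). Intervals treat fragments as independent molecules, which amplified reads are not. The procedure was tested on simulated counts. Alternatives were library totals, DESeq2 1.42.0 size factors, the upper quartile, other filters, floors and fold rules, TPM, and a 3 Mb window.

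All 131 listed symbols were found. The members and lists were chosen with earlier results of these data known. The rule named, of each pathway list, up to 3 genes per direction at 5 CPM or more and 2-fold or more. From marker lists it took the highest gene per line and markers at 0. Some genes these rules name are not reported here. ADAM10, MIB1, LFNG, POFUT1, RBPJ, TLE3, NUMB, DTX1, NRARP, HES4, HES5, HEY2, DLL3, DLL4, ID1, NOTCH2NL, GPSM3, MYLK, TAGLN, CNN1, ACTA2, DES and MYH11 were named outside the rule, after their values were seen. With 2 libraries no genes of like pattern could be named.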

Additional observations from a re-analysis of the deposited data

How the results depend on the processing

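The 2 members called higher in SK-LMS-1, NOTCH4 and DLL1, both rest on few counts from genes with haplotype copies. Their number was 0 with 10 counts in both libraries, a filter that drops both, and 0 with a 4-fold rule. Leaving out NOTCH2, NOTCH4 and DLL1, an alternative chosen after seeing the data, gives 0 by construction and tests nothing. Members called higher in SK-UT-1, 4 in all, became 5 with library totals or the upper quartile, as JAG1 passed 2-fold, and 3 with a 4-fold rule. Requiring 10 counts in both libraries left 1 (NOTCH1), since that filter drops NOTCH3, JAG2 and HEYL. Library totals moved the median log2 ratio of all measured genes by -0.15 and the upper quartile by -0.13. The log2 ratio of NOTCH2 was 0.12 with library totals, 0.14 with the upper quartile and 0.12 in TPM, and 0.27 with TMM. The other 9 members stayed within their counting intervals under these scalings, under DESeq2 size factors, in TPM and with a floor of 1 count. The median of the members was -0.33 with no filter or with 10 counts in both libraries, against -0.90. With a 4-fold rule, 10 of the 68 other measured pathway genes passed towards SK-LMS-1, beside 11.4% of all measured genes. Another 6 passed towards SK-UT-1, beside 7.3%. At 2-fold, 14 passed towards SK-LMS-1 and 18 towards SK-UT-1 with library totals, and 15 and 18 with the upper quartile. The median log2 ratio of the other pathway genes was -0.18 with library totals and -0.16 with the upper quartile. In a 3 Mb window the median beside JAG1 was 1.77, over 10 genes. With the tabulated length, which adds up haplotype copies, DLL1 and HEY1 exchanged ranks in SK-LMS-1. No paired analysis was possible because each line has 1 library. Depth limits NOTCH4, DLL1 and HEY1, at 12 counts or fewer.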
